A study of Mus musculus with 9 samples.

Results

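Interferon-induced genes are the transcripts that cells make in response to interferons, the secreted proteins that warn tissue of viruses and intracellular microbes. The 43 genes described here were chosen by symbol from known interferon-induced families, and each symbol was matched to 1 identifier of GENCODE release M21 among the 54393 genes measured. Liver RNA was sequenced from mice given non-absorbable antibiotics to deplete the gut microbiota (4 libraries, labelled replicates 1, 2, 3 and 5) and from conventional control mice given none (5 libraries, replicates 1 to 5). All mice carried the strain label C56Bl/6j and ate the diet AIN-76a. The labels name neither the antibiotics, nor their dose or duration, nor the age of the mice.

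Type I interferons act through the receptor IFNAR and the kinases JAK1 and TYK2, which activate a complex with STAT2 and IRF9 that binds the interferon-stimulated response element (ISRE) in promoters. Interferon gamma, made mainly by T and NK cells, acts through its own receptor and JAK1 and JAK2, and induces genes through the gamma-activated site (GAS). The guanylate-binding proteins and the immunity-related GTPases, families whose effectors attack the vacuoles of intracellular microbes, are classical targets of interferon gamma. In liver, hepatocytes, Kupffer cells and endothelial cells all carry interferon receptors, and the portal vein brings them microbial products from the gut.

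Promoters of 7 genes are shown, 4 of GTPases that stood out in a single library and 3 of antiviral genes that did so less, so that their ISRE and GAS letters can be read. Each line gives a 150-base stretch of a RefSeq promoter (GRCm38.p6) that ends 10 bases into the transcript, 5′ to 3′ on the strand of the gene. Capitals mark the core of an ISRE, GAAANNGAAA on either strand, and a GAS, TTCNNNGAA, which reads alike on both strands.
Tgtp1, chr11:48992237-48992386, minus strand: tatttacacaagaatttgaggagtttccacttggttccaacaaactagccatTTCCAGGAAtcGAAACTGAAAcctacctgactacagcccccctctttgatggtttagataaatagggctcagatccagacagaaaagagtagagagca
Igtp, chr11:58199416-58199565, plus strand: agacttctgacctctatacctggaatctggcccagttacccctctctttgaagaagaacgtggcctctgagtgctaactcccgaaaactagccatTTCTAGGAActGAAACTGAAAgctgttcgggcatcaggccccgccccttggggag
Irgm2, chr11:58214837-58214986, plus strand: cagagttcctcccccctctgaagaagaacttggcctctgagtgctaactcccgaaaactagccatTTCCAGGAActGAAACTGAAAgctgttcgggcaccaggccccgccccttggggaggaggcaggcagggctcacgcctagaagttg
Irgm1, chr11:48871411-48871560, minus strand: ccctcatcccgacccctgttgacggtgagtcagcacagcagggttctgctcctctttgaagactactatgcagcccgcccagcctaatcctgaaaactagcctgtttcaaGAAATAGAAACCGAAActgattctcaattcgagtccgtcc
Isg15, chr4:156200809-156200958, minus strand: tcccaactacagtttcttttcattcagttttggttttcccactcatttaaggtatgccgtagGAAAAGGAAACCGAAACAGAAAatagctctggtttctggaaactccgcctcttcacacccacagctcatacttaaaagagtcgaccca
Ifit1, chr19:34640749-34640898, plus strand: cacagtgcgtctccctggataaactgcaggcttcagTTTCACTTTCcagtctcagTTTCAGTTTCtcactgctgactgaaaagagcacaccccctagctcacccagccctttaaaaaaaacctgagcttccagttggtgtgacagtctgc
Oas1a, chr5:120907516-120907665, minus strand: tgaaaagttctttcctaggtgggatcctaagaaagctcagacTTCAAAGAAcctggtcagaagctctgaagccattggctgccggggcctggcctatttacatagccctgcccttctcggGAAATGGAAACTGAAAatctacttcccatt

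Of the 43 genes, 30 had a promoter in the RefSeq table, which runs from 250 bases before the start to 50 after it. Those without one were Usp18, Parp14, Ifi27, Oas2, Rtp4, Dhx58, Ifi27l2a, Mx1, Iigp1, Cxcl11, Zbp1, Gbp6 and Mx2. The ISRE core was found in 19 of the 30 (63.3%), against 3.99% of all 27025 genes with a promoter of that length. A GAS was found in 8 of the 30 (26.7%), against 9.55% of all genes. Among the 7 GTPases with a promoter, all 7 held the ISRE core and 4 held a GAS. Of the 23 other genes, 12 held the ISRE core and 4 a GAS. In Tgtp1, Igtp and Irgm2 the printed GAS began at positions -88, -45 and -75 from the transcript start, and an ISRE core began 11 bases after the start of the GAS in each. That spacing, noticed after the matches had been seen, occurred in 5 of the 27025 promoters (0.0185%), the others being Gm12185 and Tgtp2. Tgtp2 is a close copy of Tgtp1, and Gm12185 shares 223 nucleotides with Tgtp1. The printed stretches of Igtp and Irgm2 are nearly alike around the motifs, so the 5 promoters cannot be counted as independent. Irgm1 had 2 overlapping ISRE cores and no GAS in its promoter, Isg15 had 3 overlapping cores, and Ifit1 had 2 cores on the opposite strand. A match of letters is a description of the sequence and not of binding.

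The libraries held 15422891 to 59179622 estimated counts in antibiotics livers and 28156248 to 49628737 in control livers, and all 43 genes passed the filter on low counts. Values are CPM, counts scaled to a common library size, in the order of the replicate numbers above. The sum of 10 hepatocyte markers, among them albumin, was 93430 to 102900 CPM in antibiotics livers and 94600 to 108300 CPM in control livers. Control replicate 2 stood apart from the other 8 libraries. Its summed Kupffer cell and macrophage markers reached 749.9 CPM, against 250.4 to 350.3 CPM in the other 8 libraries, and each of the 12 genes of that list was highest there. Its summed T cell markers reached 10.6 CPM, against 3.71 to 6.40 CPM elsewhere, and its summed NK cell markers 8.07 CPM, against 1.40 to 2.99 CPM elsewhere. In bulk liver, fewer or more cells of a type and less or more RNA per cell cannot be told apart. The counts, the medians and most of the genes named are therefore given with and without this library. Mitochondrial transcripts made up 4.77% of its counts, against 4.34% to 7.35% in the other 8 libraries.

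Per transcript length, the interferon-induced genes spanned a wide range of levels. Bst2, a membrane tether that holds budding virions on the cell surface, was the highest with a mean of 268 TPM, a level corrected for transcript length, over the 9 libraries. Ifi27, a mitochondrial and nuclear-envelope protein of the interferon response, followed with 119 TPM and the GTPase gene Iigp1 with 90.4 TPM. Mx1, a dynamin-like antiviral GTPase, was the lowest with 0.514 TPM.

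With all 9 libraries, 1 of the 43 genes was higher in antibiotics livers and 0 were lower at an adjusted p under 0.05 (quasi-likelihood test of edgeR, adjusted by the Benjamini-Hochberg method). In that comparison 1.63% of the 14873 genes tested were called higher and 1.05% lower, so the share of interferon-induced genes called was close to that of all genes. The gene called was the chemokine gene Cxcl11, annotated as a polymorphic pseudogene. An unadjusted p under 0.05 was found for 5 of the 43, of which 4 were higher and 1 was lower in antibiotics livers, where 18.5% of all genes tested had one. The fold change was above 0 on the log2 scale in 19 genes and below 0 in 24, with a median of -0.0937, beside a median of -0.00735 over all genes tested.

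Once control replicate 2 was left out, 1 gene was again called higher and 0 lower, where 0.747% of 14583 genes were called higher and 0.384% lower. The gene called was then Rtp4 and no longer Cxcl11. Of the 43, 16 had an unadjusted p under 0.05, 15 higher and 1 lower, where 16.3% of all genes had one (1251 higher and 1130 lower). The fold change was above 0 in 34 of the 43 genes (79.1%), beside 50% of all genes tested, and its median was 0.136, beside -0.000138 over all genes. A single control library thus moved the median fold change of the group to the other side of 0.

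**Figure D1:**
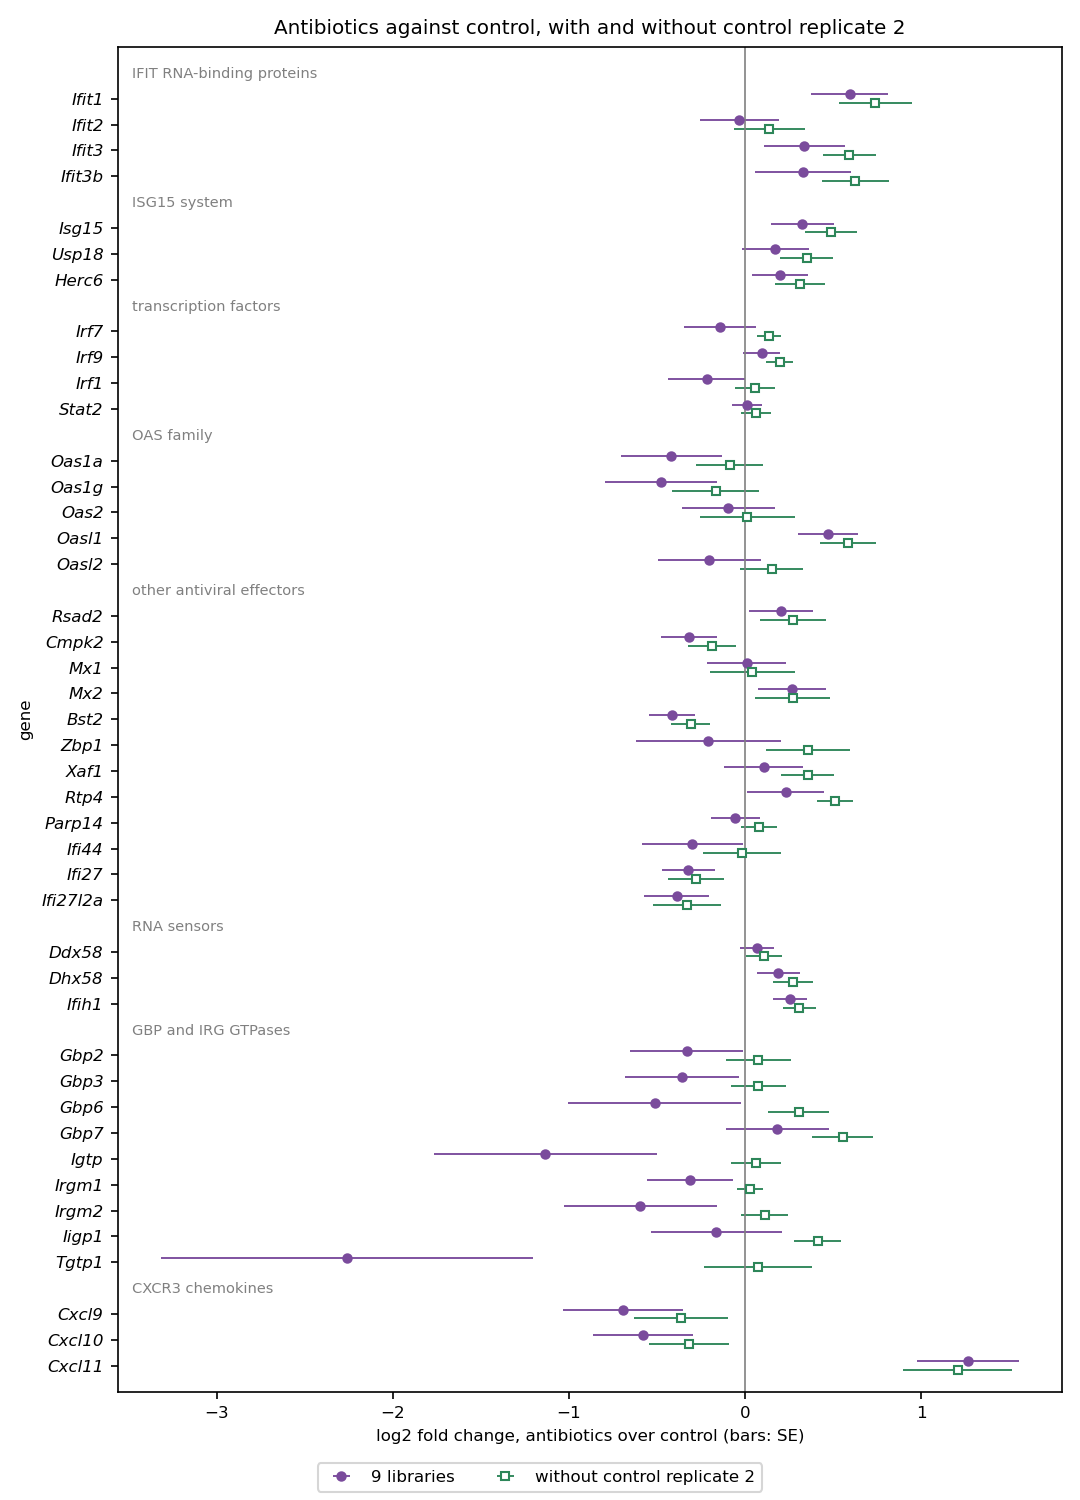
Log2 fold change of antibiotics over control livers for each of the 43 interferon-induced genes, grouped by role (filled circles, 9 libraries; open squares, without control replicate 2; bars are SE). In the GTPase group the circles lie below 0 for 8 of 9 genes, and the squares lie above 0 for 9 of 9.

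The antibiotics and control libraries did not overlap in 1 of the 43 genes with all 9 libraries, where 8.88% of all genes tested had no overlap. After omission of control replicate 2 they did not overlap in 9 of the 43 genes, where 10.9% of all genes had no overlap. Those 9 were Ifit1, Ifit3b, Irf7, Irf9, Xaf1, Rtp4, Dhx58, Ifih1 and Cxcl11, and each was higher in antibiotics livers. Control replicate 5 was the lowest of the 9 libraries in 26 of the 43 genes, where it was the lowest in 19.9% of all genes.

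The interferons themselves were not detectable at this depth in most libraries. Of 20 interferon genes, none passed the filter, and 19 had 0 counts in all 9 libraries. A count of 0 allows up to 3 counts, which is 0.196 CPM in the shallowest library and 0.0483 CPM in the deepest. Ifng, which encodes interferon gamma, had 0, 1, 0 and 0 counts in antibiotics livers, against 0, 4, 0, 0 and 0 counts in control livers. The 4 counts lay in control replicate 2, a deeper library than antibiotics replicate 2. Scaled for depth they were 0.08316 CPM, beside 0.05575 CPM for the 1 count in antibiotics replicate 2.

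Of 20 receptor and signalling genes, 18 were tested and 0 were called, with a median log2 fold change of -0.0859 with all libraries and -0.0418 without control replicate 2. The receptor chains Ifnar1 and Ifnar2 differed by 0.11 ± 0.08 and -0.10 ± 0.07 (SE), and by 0.11 ± 0.09 and -0.06 ± 0.07 without control replicate 2. An unadjusted p under 0.05 was found for 4 of the 18, a share near that of all genes, and for 3 without control replicate 2. The 4 genes all averaged less in antibiotics livers. They were Ptpn2, a phosphatase that limits interferon signalling (-0.36 ± 0.09, edgeR adjusted p = 0.0707), Irf2bp2, a co-repressor (-0.59 ± 0.19, adjusted p = 0.117), Ptpn11 and Ifngr1. Without control replicate 2, Ptpn2 differed by -0.39 ± 0.10 and Irf2bp2 by -0.61 ± 0.20 (SE, edgeR adjusted p = 0.0845 and 0.152), and Ifngr1 no longer had an unadjusted p under 0.05. Of 20 genes that sense nucleic acids or induce interferon, 0 were called, and the smallest p belonged to Traf3, an adaptor in that induction (-0.41 ± 0.11 with all libraries and -0.35 ± 0.11 without control replicate 2, edgeR adjusted p = 0.0721 and 0.143).

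The transcription factors among the 43 genes were Stat2 and Irf9, which act together at the ISRE, Irf7, which amplifies type I interferon production, and Irf1, a target of interferon gamma. Irf9 had 32.1, 32.1, 34.4 and 29.8 CPM in antibiotics livers, against 28.9, 37.8, 27.3, 29.5 and 26.4 CPM in control livers. Its log2 fold change was 0.09 ± 0.10 (SE) with all libraries and 0.20 ± 0.07 without control replicate 2, where the groups did not overlap (edgeR adjusted p = 0.221). Irf7 had 35.4, 34.6, 35.8 and 36.8 CPM in antibiotics livers, against 30.9, 66.3, 33.2, 32.05 and 34.1 CPM in control livers. The 4 antibiotics libraries lay within a narrow band just above the other 4 controls, and control replicate 2 was 2.04 times the mean of those controls. Stat2 had 55.7, 53.6, 52.4 and 58.99 CPM in antibiotics livers, against 53.9, 61.6, 57.9, 54.8 and 45.7 CPM in control livers, and its groups overlapped with a log2 fold change of 0.01 ± 0.09 with all libraries and 0.06 ± 0.09 without control replicate 2 (SE). Irf1 had 23, 25.1, 30 and 31.4 CPM in antibiotics livers, against 26.3, 53.2, 30.1, 25.2 and 24.5 CPM in control livers, and only control replicate 2 stood outside the range of the rest.

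The IFIT proteins bind viral RNA that lacks the cap modifications of the host. Ifit1 had 8.3, 5.91, 10.2 and 4.86 CPM in antibiotics livers, against 4.47, 6.49, 3.96, 4.58 and 4.26 CPM in control livers. The 4 antibiotics livers were above every control other than replicate 2, which itself exceeded antibiotics replicates 2 and 5. The log2 fold change was 0.60 ± 0.22 (SE, edgeR adjusted p = 0.174) with all libraries and 0.74 ± 0.21 (adjusted p = 0.11) without control replicate 2. Ifit3 had 13.8, 13.3, 15.8 and 10.5 CPM in antibiotics livers, against 10.6, 17.03, 9.199, 8.46 and 6.87 CPM in control livers. Control replicate 2 was the highest library, and antibiotics replicate 5 lay just under control replicate 1. Its log2 fold change was 0.34 ± 0.23 with all libraries and 0.59 ± 0.15 without control replicate 2 (SE, edgeR adjusted p = 0.469 and 0.084). Ifit3b, a close copy of Ifit3 with 97.8% identity over 1700 nucleotides, had a log2 fold change of 0.33 ± 0.27 with all libraries and 0.63 ± 0.19 without control replicate 2 (SE), and reads of the pair could be split between them. Summed over the pair, CPM averaged 16.6 ± 2.78 in antibiotics livers (SD, n = 4) and 10.8 ± 1.87 in the 4 controls other than replicate 2 (SD, n = 4). Ifit2 had 2.81, 2.79, 4.59 and 3.08 CPM in antibiotics livers, against 3.78, 4.802, 2.94, 2.903 and 2.39 CPM in control livers, with overlapping groups. The median log2 fold change of the 4 IFIT genes was 0.333 with all libraries and 0.61 without control replicate 2.

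Isg15 encodes a ubiquitin-like protein that is attached to other proteins, Herc6 the main enzyme that attaches it in mice, and Usp18 the protease that removes it and damps the interferon receptor. Isg15 had 7.71, 6.69, 7.46 and 5.59 CPM in antibiotics livers, against 4.69, 7.61, 5.67, 5.08 and 3.96 CPM in control livers. Antibiotics replicate 5 was just below control replicate 3, and control replicate 2 was level with the higher antibiotics livers. Herc6 had 14.4, 14.2, 16.1 and 12.7 CPM in antibiotics livers, against 10.1, 16.1, 14.6, 12.2 and 9.21 CPM in control livers. Usp18 had 9.54, 8.31, 8.95 and 8.42 CPM in antibiotics livers, against 5.23, 11.2, 8.62, 7.67 and 6.13 CPM in control livers. In both genes antibiotics livers overlapped with the other controls. With all libraries the log2 fold changes were 0.33 ± 0.18 for Isg15, 0.20 ± 0.16 for Herc6 and 0.17 ± 0.19 for Usp18 (SE, edgeR adjusted p = 0.366, 0.542 and 0.680). Without control replicate 2 they were 0.49 ± 0.15 for Isg15, 0.31 ± 0.14 for Herc6 and 0.35 ± 0.15 for Usp18 (SE), and none passed (edgeR adjusted p = 0.124, 0.302 and 0.282).

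**Figure D2:**
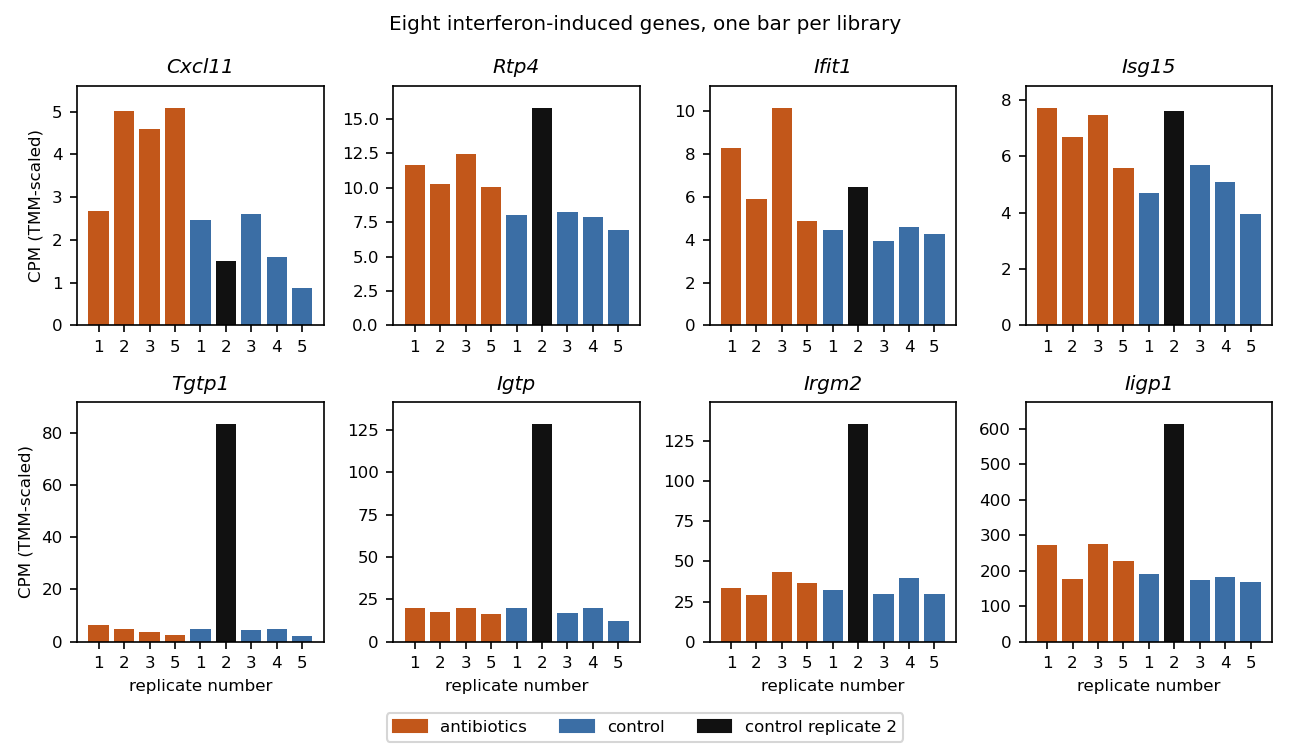
CPM in each liver library for 8 interferon-induced genes, with replicate numbers on the horizontal axis (orange, antibiotics; blue, control; black, control replicate 2). Control replicate 2 is the highest library for Tgtp1, Igtp, Irgm2, Iigp1 and Rtp4, and it is not the highest for Cxcl11, Ifit1 and Isg15.

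The 2′-5′-oligoadenylate synthetases make the signal that activates RNase L when double-stranded RNA is present. Oasl1, an OAS-like protein that in mice restrains translation of Irf7, had 7.25, 6.13, 10.1 and 9.19 CPM in antibiotics livers, against 6.34, 7.59, 5.37, 4.97 and 5.29 CPM in control livers. Antibiotics replicates 3 and 5 were above every control, and replicates 1 and 2 were not. Its log2 fold change was 0.47 ± 0.17 with all libraries and 0.59 ± 0.16 without control replicate 2 (SE, edgeR adjusted p = 0.161 and 0.101). Oasl2 had 5.62, 5.13, 6.74 and 5.41 CPM in antibiotics livers, against 5.18, 12.04, 6.96, 4.72 and 3.74 CPM in control livers. Oas1a had 4.05, 3.57, 5.19 and 4.798 CPM in antibiotics livers, against 4.098, 10.5, 4.66, 3.81 and 6.42 CPM in control livers. In both, the groups overlapped, and control replicate 2 was the highest library at 2.34 and 2.22 times the mean of the other controls. Oas1a and its close copy Oas1g share 97.6% identity over 1861 nucleotides, and their summed CPM averaged 5.54 ± 0.951 in antibiotics livers (SD, n = 4) and 6.01 ± 1.13 in the controls other than replicate 2 (SD, n = 4). Oas2, another synthetase, had a log2 fold change of -0.09 ± 0.26 with all libraries and 0.01 ± 0.27 without control replicate 2 (SE) and overlapping groups.

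Among the other antiviral effectors, Rtp4, a chaperone of membrane receptors, had 11.6, 10.3, 12.5 and 10.03 CPM in antibiotics livers, against 7.999, 15.8, 8.28, 7.92 and 6.94 CPM in control livers. The antibiotics livers were above every control except replicate 2, which was the highest of all. The log2 fold change was 0.23 ± 0.22 (SE, edgeR adjusted p = 0.619) with all libraries. Without control replicate 2 it was 0.51 ± 0.10 (SE, edgeR adjusted p = 0.0483), and antibiotics livers averaged 11.1 ± 1.15 CPM (SD, n = 4) beside 7.78 ± 0.584 CPM in the 4 controls (SD, n = 4). The call rests on leaving that library out. Among the 17 alternatives tried on those 8 libraries, the Benjamini-Hochberg adjusted p ranged from 0.00521 to 0.137, and Rtp4 passed in 5 of them. When 1 further library was omitted, it passed in 0 of 8 fits. Rtp4 shares 296 nucleotides with the non-coding gene Gm45338 on the same strand.

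Bst2 had 108, 91.8, 92.4 and 98.3 CPM in antibiotics livers, against 104, 166, 118, 116 and 148 CPM in control livers. Antibiotics replicate 1 lay within the range of the controls, and the other 3 antibiotics livers were below all 5 controls. Its log2 fold change was -0.42 ± 0.13 (SE, edgeR adjusted p = 0.117) with all libraries and -0.31 ± 0.11 (adjusted p = 0.198) without control replicate 2. By DESeq2 the adjusted p with all libraries was 0.0414. Bst2 is also a marker of plasmacytoid dendritic cells. Ifi27 had 74.4, 76.1, 64.3 and 79.9 CPM in antibiotics livers, against 69.4, 102, 107, 71.2 and 111 CPM in control livers, with a log2 fold change of -0.32 ± 0.15 with all libraries and -0.28 ± 0.16 without control replicate 2 (SE, edgeR adjusted p = 0.277 and 0.424). Parp14, an ADP-ribosyltransferase, had 28.5, 28.99, 34.04 and 30.8 CPM in antibiotics livers, against 26.8, 42.6, 33.05, 31.3 and 25 CPM in control livers, and its groups overlapped. Xaf1, which opposes an inhibitor of apoptosis, averaged 4.998 ± 0.0832 CPM in antibiotics livers (SD, n = 4) and 3.896 ± 0.759 CPM in the 4 controls other than replicate 2 (SD, n = 4). Control replicate 2 was its highest library, at 7.44 CPM. The log2 fold change of Xaf1 was 0.11 ± 0.23 with all libraries and 0.36 ± 0.15 without control replicate 2 (SE, edgeR adjusted p = 0.846 and 0.273). Zbp1, a sensor of left-handed nucleic acids that starts necroptosis, reached 3.28 times the mean of the other controls in control replicate 2. The remaining 6 genes of this group, Rsad2, Cmpk2, Mx1, Mx2, Ifi44 and Ifi27l2a, had log2 fold changes between -0.39 and 0.27 and overlapping groups.

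The cytosolic RNA sensors had the lowest median ratio of the 8 role groups in control replicate 2, where they lay at 1.13 to 1.28 times the mean of the other controls. Ifih1, which encodes MDA5, the sensor of long double-stranded RNA, had 36.4, 34.5, 41.2 and 31.2 CPM in antibiotics livers, against 29.3, 33.8, 29.4, 30.7 and 26.2 CPM in control livers. The lowest antibiotics liver was above every control except replicate 2. Its log2 fold change was 0.26 ± 0.10 with all libraries and 0.31 ± 0.09 without control replicate 2 (SE, edgeR adjusted p = 0.181 and 0.131). Dhx58, which encodes the regulator LGP2, had 12.1, 10.2, 10.4 and 9.97 CPM in antibiotics livers, against 9.55, 11.2, 8.77, 9.55 and 7.27 CPM in control livers. Ddx58, which encodes RIG-I, the sensor of short RNA with a triphosphate end, had 25.7, 24.4, 32.8 and 27.6 CPM in antibiotics livers, against 27.5, 29, 25.6, 26.6 and 22.98 CPM in control livers. Dhx58 separated the groups without control replicate 2 by a small margin, and Ddx58 did not. The median log2 fold change of the 3 sensors was 0.19 with all libraries and 0.273 without control replicate 2.

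By the median ratio to the other controls, the GTPases were the role group in which control replicate 2 lay furthest above the rest. The group holds guanylate-binding proteins (Gbp2, Gbp3, Gbp6, Gbp7) and immunity-related GTPases (Igtp, Irgm1, Irgm2, Iigp1, Tgtp1). The effectors of these families coat and disrupt the vacuoles of parasites and bacteria in mice. Tgtp1 had 6.27, 4.96, 3.76 and 2.61 CPM in antibiotics livers, against 4.81, 83.5, 4.599, 4.72 and 2.06 CPM in control livers. Igtp had 19.6, 17.3, 19.7 and 16.2 CPM in antibiotics livers, against 20.1, 129, 17.1, 19.7 and 12.4 CPM in control livers. Outside control replicate 2, both genes varied within overlapping ranges in the 2 groups. Irgm2, which keeps the effector GTPases off host membranes as Irgm1 does, had 33.2, 28.8, 43.6 and 36.5 CPM in antibiotics livers, against 32.3, 136, 29.99, 39.9 and 29.5 CPM in control livers. Irgm1 had 41.8, 40.7, 45.4 and 37.8 CPM in antibiotics livers, against 41.4, 93.99, 39, 40.03 and 42.2 CPM in control livers. Antibiotics and control livers again overlapped apart from replicate 2. Iigp1, an effector GTPase and the most abundant of the group per length, had 272, 175, 274 and 228 CPM in antibiotics livers, against 191, 614, 174, 182 and 169 CPM in control livers.

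In control replicate 2 all 9 GTPase genes were at least 2-fold above the mean of the other 4 controls and were highest among the 9 libraries, where 2.33% of all genes tested were at least 2-fold above and 10.5% were highest there. Their ratios ran from 2.31 to 20.6 with a median of 3.43. Tgtp1, at 20.6 times, had the highest ratio of all 14873 genes tested, and Igtp, at 7.42 times, ranked 14. Of the 43 interferon-induced genes, 19 were at least 2-fold above, 29 were highest in that library, and the median ratio was 1.91, beside 0.985 over all genes. By its gap to the nearest other control over the range of the 5 controls, control replicate 2 stood far above in 16 of the 43, where it did so in 1.71% of all genes tested. None of the 43 was at or below 0.5 times the mean of the other controls. The Kupffer cell, T cell and NK cell sums given above were high in the same library, and their part in these ratios was not tested. The 3 genes whose promoters hold the GAS and ISRE core 11 bases apart, Tgtp1, Igtp and Irgm2, had ratios of 20.6, 7.42 and 4.12. These 3 promoters resemble each other around the motifs. The ratios of the other 3 genes with both motifs were lower, 2.41 for Gbp7, 2.22 for Oas1a and 1.37 for Bst2. Of the genes with the ISRE core and no GAS, Gbp3 had a ratio of 2.71, Gbp2 of 2.59, Irgm1 of 2.31, Isg15 of 1.57 and Ifit1 of 1.503. Among the rest of them, Oas1g, Ifit3b, Cxcl10 and Ifit3 had ratios of 2.14, 2.11, 1.96 and 1.94. Rsad2, Ifih1, Stat2 and Ddx58 had ratios of 1.23, 1.17, 1.16 and 1.13. Genes with both motifs and genes with the ISRE core alone thus overlapped in their ratios. Irf1 and Ifit2, with a GAS and no ISRE core, had ratios of 2.01 and 1.60. Gbp6, whose ratio of 4.72 exceeded that of Irgm2, had no promoter to search, nor had Iigp1 (3.43) and Zbp1 (3.28). The promoters were compared after the ratios were known, and the relation was not tested.

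**Figure D3:**
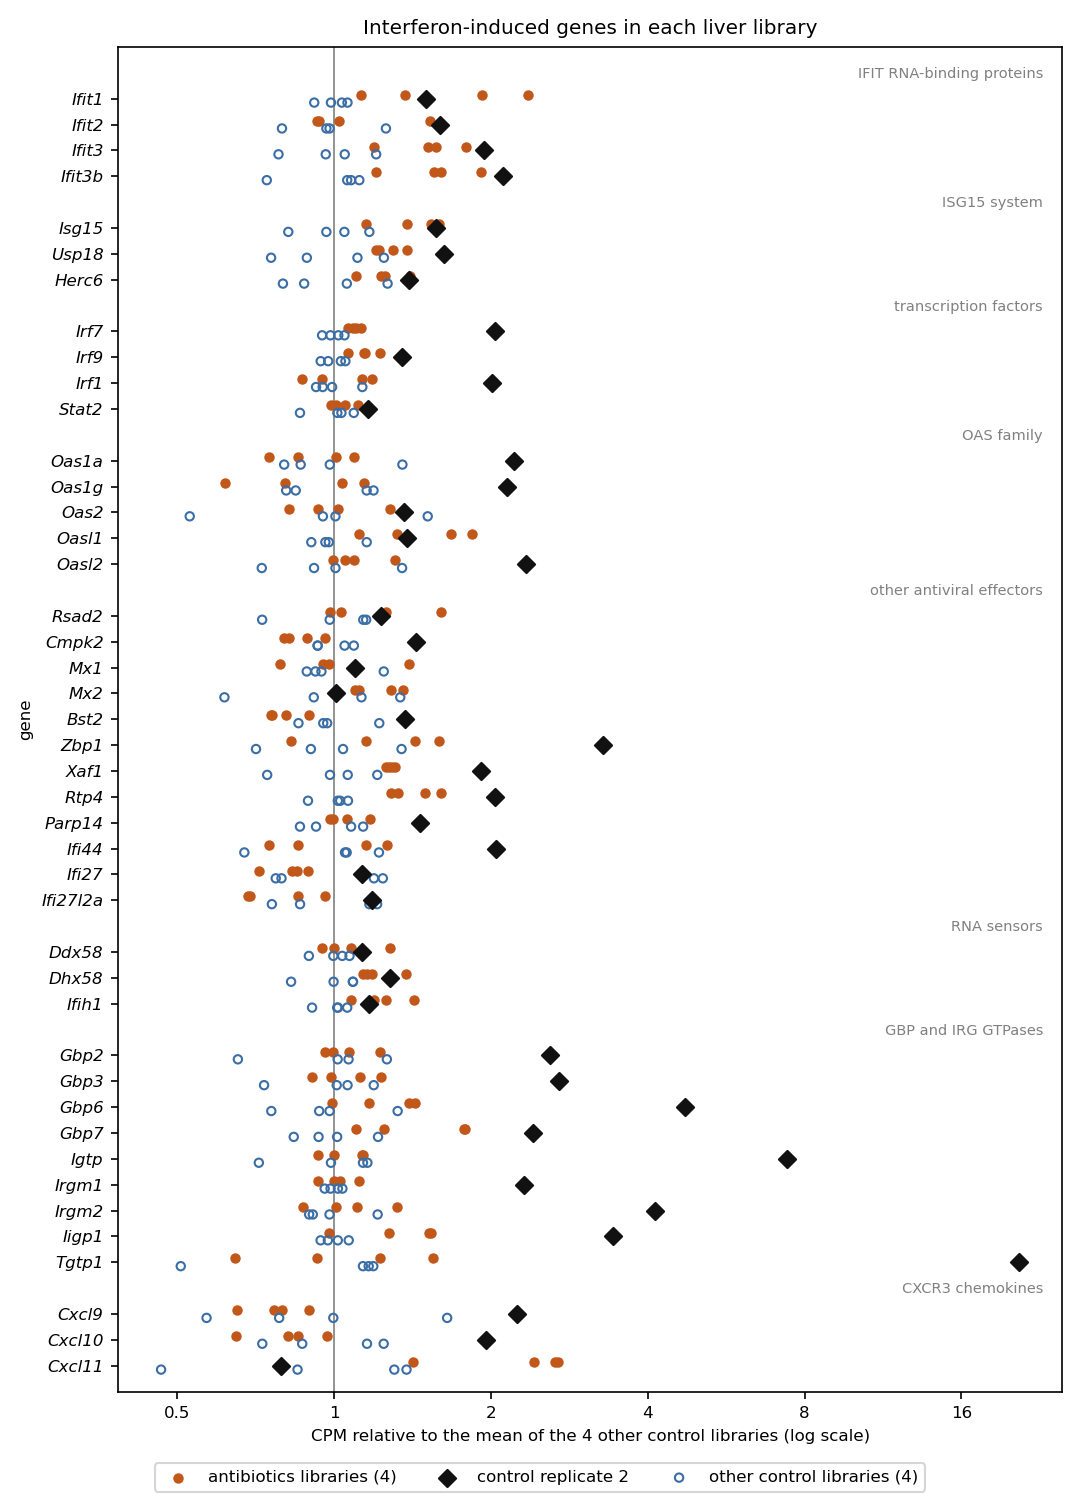
CPM of each interferon-induced gene in each library, relative to the mean of the 4 control libraries other than replicate 2, on a log axis (orange circles, antibiotics; open blue circles, other controls; black diamonds, control replicate 2). The diamonds of the GTPases lie at 2.31 or more, and the one of Tgtp1 at 20.6.

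With that library included, the fitted changes of the GTPases between the groups had wide errors. With all 9 libraries the log2 fold change was -2.26 ± 1.06 (SE) for Tgtp1, -1.13 ± 0.63 for Igtp and -0.59 ± 0.43 for Irgm2, and none passed (edgeR adjusted p = 0.282, 0.37 and 0.501). Without control replicate 2 the values were 0.07 ± 0.31, 0.07 ± 0.14 and 0.11 ± 0.14. Over the 9 genes the median log2 fold change was -0.358 with all libraries and 0.0766 without control replicate 2, and the number of genes above 0 was 1 and 9. The largest change without it was in Gbp7, at 0.55 ± 0.17 (SE, edgeR adjusted p = 0.139), followed by Iigp1, at 0.41 ± 0.13 (adjusted p = 0.146). Tgtp1 and its copy Tgtp2 share 99.8% identity over 2811 nucleotides. Their summed CPM was 10.7, 8.31, 6.47 and 5.22 in antibiotics livers, against 9.31, 98.8, 7.88, 9.64 and 4.55 in control livers, so control replicate 2 stood at 12.6 times the mean of the other controls for the pair. Gbp6 shares sequence with Gbp10, Gbp11 and Gm43302, and for the 4 together that ratio was 5.69. Igtp and Irgm2 share 162 bases of exon.

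The chemokines Cxcl9, Cxcl10 and Cxcl11 draw T and NK cells that carry the receptor CXCR3. Cxcl11 had 2.68, 5.02, 4.59 and 5.09 CPM in antibiotics livers, against 2.47, 1.497, 2.61, 1.61 and 0.881 CPM in control livers. Every antibiotics liver was above every control, by a margin of 2.68 beside 2.61 CPM at the closest point, and control replicate 2 was among the lower controls. Means were 4.34 ± 1.13 CPM in antibiotics livers (SD, n = 4) and 1.81 ± 0.719 CPM in control livers (SD, n = 5), a 2.41-fold difference with a log2 fold change of 1.27 ± 0.29 (SE, edgeR adjusted p = 0.0445). Across 18 alternatives the log2 fold change was above 0 in each (1.11 to 1.43), and the Benjamini-Hochberg adjusted p ranged from 0.00133 to 0.134, under 0.05 in 9 of them. When each library was omitted in turn, the call held in 2 of 9 fits, those lacking control replicate 3 or 5. Without control replicate 2 the log2 fold change was 1.21 ± 0.31 (SE, edgeR adjusted p = 0.0838). In the annotation Cxcl11 (chromosome 5, 92359544 to 92365485, GRCm38) is a polymorphic pseudogene, so its RNA does not show that a working chemokine was made. The pseudogene Gm2673 lies within Cxcl11 on the opposite strand over 1582 bases of exon. Gm2673 is listed at 0 in all 9 libraries. Whether the authors' counting could assign reads to it is not stated, so the 0 does not show that it gave none.

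Cxcl9, a target mainly of interferon gamma, had 13.8, 16.1, 14.3 and 11.7 CPM in antibiotics livers, against 14.1, 40.3, 29.6, 10.2 and 17.9 CPM in control livers. Cxcl10 had 1.44, 1.505, 1.71 and 1.14 CPM in antibiotics livers, against 2.197, 3.45, 1.53, 2.04 and 1.28 CPM in control livers. Both were highest in control replicate 2, and the antibiotics livers lay within the range of the controls for Cxcl9 and reached below it for Cxcl10. Their log2 fold changes were -0.69 ± 0.34 and -0.58 ± 0.28 with all libraries and -0.36 ± 0.27 and -0.32 ± 0.23 without control replicate 2 (SE, edgeR adjusted p = 0.307, 0.308, 0.561 and 0.542). The fold change of Cxcl11 was thus on the other side of 0 from those of the other 2 chemokines, a difference between genes that was not tested.

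A wider list held 79 further interferon-induced genes. Of the 75 tested, 21 were at least 2-fold above the mean of the other controls in control replicate 2 and 54 were highest in that library. High ratios were 8.56 for Ccl5, a chemokine of T and NK cells, 7.81 for Gbp10 and 5.40 for Ciita, the activator of MHC class II genes. Between antibiotics and control livers 0 of the 75 were called, 5 had an unadjusted p under 0.05 (2 higher and 3 lower), and without control replicate 2 it was 10 of 73, all higher. The shares over all genes were 18.5% and 16.3%. The median log2 fold change was -0.0925 with all libraries and 0.086 without control replicate 2. Ido1, another target of interferon gamma, did not pass the filter.

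Markers of some other cell types moved with the interferon-induced genes in control replicate 2. All 12 Kupffer cell and macrophage markers were at least 2-fold above the mean of the other controls there, as were 10 of 12 T cell markers and 8 of 10 NK cell markers. Among those that passed the filter on low counts it was 8 of 9 T cell and 3 of 3 NK cell markers. Of all genes tested, 2.33% were that high. Ratios of markers that failed the filter rest on few counts. Clec4f, a receptor found on Kupffer cells, was at 2.02 times the mean of the other controls and the scavenger receptor Marco at 4.96 times. None of the markers of any list was at 0 in all libraries. Summed B cell and plasma cell markers were 34.3 CPM in control replicate 2, against 8.69 to 22.0 CPM elsewhere. The sum of plasmacytoid dendritic cell markers was 193 CPM, against 109.4 to 164.1 CPM elsewhere. Most of it was Bst2, itself 1 of the 43 genes, at 166 CPM in control replicate 2. Of the 9 markers of that list, 3 were highest there and 1 was at least 2-fold above the mean of the other controls. Siglech, another of them, was at 0.385 times that mean. The sum of monocyte and conventional dendritic cell markers was 15.5 CPM, against 10.1 to 15.1 CPM elsewhere. Neutrophil, hepatocyte and sinusoidal endothelial sums in that library lay within the range of the other 8. Between the groups, summed Kupffer markers were 261.3 to 342.2 CPM in antibiotics livers and 250.4 to 350.3 CPM in the controls other than replicate 2. The part of these cell types in the levels of the interferon-induced genes was not tested.

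**Figure D4:**
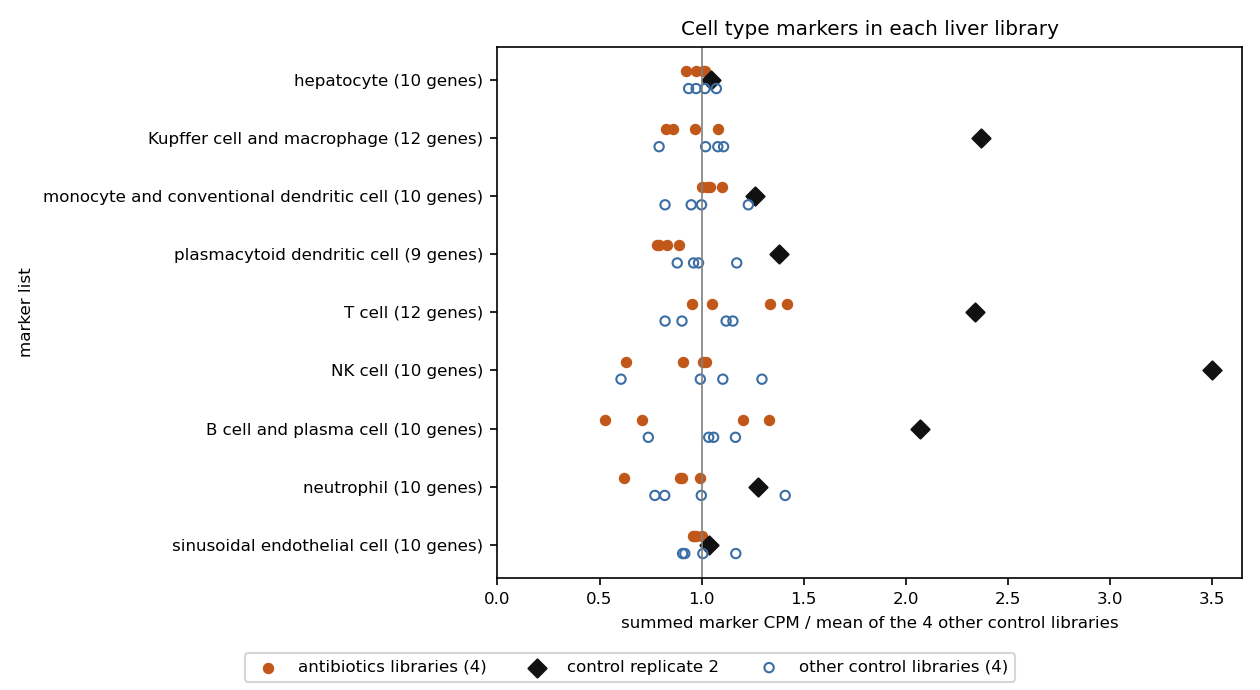
Summed CPM of each marker list in each library, relative to the mean of the 4 control libraries other than replicate 2 (orange circles, antibiotics; open blue circles, other controls; black diamonds, control replicate 2). In control replicate 2 the Kupffer cell sum was 749.9 CPM and the NK cell sum 8.07 CPM, each above every other library, while the hepatocyte sum of 105500 CPM lay among the others.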

How the data were processed

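Poly(A) RNA of mouse liver was sequenced in 4 antibiotics and 5 control libraries made with a stranded kit, per the labels' protocols. The authors deposited 1 table of estimated counts, and the submitters' processing notes name Salmon and GRCm38. Its version, its annotation and whether counting used the strand are not given in the sources used, so reads of genes that overlap on opposite strands, as 8 of the 43 do, may not be told apart. The values were whole numbers and were used as deposited.

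Genes were filtered with filterByExpr (minimum count 10, minimum total 15), scaled by TMM and tested with edgeR 4.0.16 in R 4.3.3 (quasi-likelihood test, group as the only term, Benjamini-Hochberg adjustment over 14873 genes, threshold 0.05). CPM are on TMM-scaled libraries. TPM used M21 exon lengths. The biological coefficient of variation was 16.7%. The script was tested on simulated data. As alternatives, counts were scaled by upper-quartile or RLE factors, fitted robustly, with DESeq2 1.42.0 or with limma-voom (limma 3.58.1), filtered or thresholded otherwise, thinned to 15422891, fitted with the replicate number as a block, or refitted with each library omitted. BLAST+ 2.17.0 found a close copy (200 nt or more at 95% identity or more) for 12 of the 43 genes. Floors cover counting error only, while the SE and SD also hold the spread between libraries.

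The 43 genes, the other gene lists and the tests were chosen with earlier results of these data known. Values in each library are given for the genes that passed with or without control replicate 2 and for the 3 with the highest mean CPM in each role. From the other lists the genes that passed and up to 4 with the smallest p could be named. Genes named beyond that, among them Irf1, Tgtp1, Igtp, Zbp1, Gbp7, Ccl5, Gbp10, Ciita, Ido1, Clec4f and Marco, were chosen after their values were seen. 1 gene of the signalling list is not reported here. No 2 libraries agreed within sampling noise (the closest pair within a group had a chi-square of 20.2 per degree of freedom). Whether each library is a separate mouse is not stated in the labels, so p-values measure the spread between libraries, which may be technical. Whether replicate numbers pair the samples was not settled by the values (see the dependence on processing).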

Additional observations from a re-analysis of the deposited data

Results flagged for a closer look

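Within each group, a library that stood far from the other libraries of its group was sought in each of the 43 genes and in each marker sum. Of 104 sets of values examined, 20 held such a library, where chance gives about 1 in 20 sets, and 19 of the 20 were control replicate 2. Control replicate 2 had been singled out before this search, so that rate cannot judge its share. In that library 16 of the 43 interferon-induced genes stood apart from the other 4 controls, as did 1.71% of all genes tested on the high side. These sets share 1 library, so they are not independent of each other. Among the GTPases these were Iigp1 at 614.4 CPM, Irgm2 at 135.8 CPM, Igtp at 128.6 CPM, Irgm1 at 93.99 CPM, Tgtp1 at 83.51 CPM, Gbp6 at 41.87 CPM, Gbp3 at 19.08 CPM and Gbp7 at 18.94 CPM. Among the transcription factors they were Irf7 at 66.34 CPM, Irf1 at 53.20 CPM and Irf9 at 37.79 CPM. The others were Rtp4 at 15.82 CPM, Zbp1 at 10.62 CPM, Ifit1 at 6.486 CPM, Ifit3b at 4.387 CPM and Oas1g at 2.703 CPM. The summed markers of Kupffer cells and macrophages (749.9 CPM), T cells (10.56 CPM) and NK cells (8.066 CPM) stood apart in the same library. In antibiotics livers, Ifit2 stood apart in replicate 3 at 4.586 CPM, where the nearest other antibiotics liver had 3.075 CPM.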

How the results depend on the processing

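With all libraries, 242 genes were called higher and 156 lower with antibiotics, and the counts were 503 and 474 by DESeq2, 120 and 63 after thinning, 115 and 54 with the replicate block, 527 and 410 at an adjusted p under 0.1, and 15 and 5 under 0.01. Leaving out 1 library gave 28 to 276 higher and 8 to 191 lower. Among the 43 interferon-induced genes, the 1 called higher (Cxcl11) became 0 after thinning, with the replicate block and under 0.01, and 0 to 1 when 1 library was left out; DESeq2 called 1 lower (Bst2). In the other pathway lists 0 were called, against 3 by DESeq2, 2 under 0.1 and 0 to 1 when 1 library was left out. Without control replicate 2, the 1 called higher became 5 by DESeq2 (Rtp4, Ifit1, Oasl1, Cxcl11 and Ifit3), 2 with no filter, 3 under 0.1, and 0 with RLE factors, limma-voom, thinning, the replicate block, under 0.01 or when 1 more library was left out. The causes were not tested. Same-numbered livers of the groups correlated at -0.00218, -0.0565, 0.0322 and 0.103, with the own number best in 2 of 4. So few and weak correlations do not settle whether the numbers pair the samples.

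Single genes changed the sign of their log2 fold change in a few fits. Mx1, near 0, gave -0.00537 by DESeq2, -0.0117 by limma-voom, -0.00669 with no filter and -0.01745 with the replicate block. Zbp1 gave 0.0464 and Iigp1 0.0477 by limma-voom, Stat2 -0.00634 with no filter and -0.0141 after thinning, and Ifit2 0.0319 after thinning. Over the fits that left out 1 library, log2 fold changes ranged from -0.22 to 0.14 for Ifit2, -0.21 to 0.14 for Irf7, -0.295 to 0.0564 for Irf1, -0.04775 to 0.0609 for Stat2, -0.257 to 0.05504 for Oas2, -0.34 to 0.15 for Oasl2, -0.16 to 0.10 for Mx1, -0.38 to 0.36 for Zbp1, -0.0169 to 0.356 for Xaf1, -0.13 to 0.0775 for Parp14 and -0.0246 to 0.123 for Ddx58. Among the GTPases the ranges were -0.50 to 0.0766 for Gbp2, -0.51 to 0.0761 for Gbp3, -0.70 to 0.31 for Gbp6, -1.36 to 0.0654 for Igtp, -0.40 to 0.0291 for Irgm1, -0.75 to 0.11 for Irgm2, -0.29 to 0.41 for Iigp1 and -2.56 to 0.07445 for Tgtp1. Omitting control replicate 2 turned the sign in 15 of the 43 genes, and omitting any other single library in 1 to 3.

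Antibiotics replicates 1 to 3 were the shallowest libraries, so the precision of genes near 1 CPM, such as Mx1, is lowest there. They held 15422891 to 18504624 counts, against 28156248 to 49628737 in controls, so depth partly went with group. Antibiotics replicate 5 was the deepest library. Among the genes that separated the groups without control replicate 2, it was the lowest antibiotics liver in Ifit1, Ifit3b, Irf9, Rtp4, Dhx58 and Ifih1. In Irf7 and Cxcl11 it was the highest. Apart from the thinning, the part of depth in the fold changes was not tested.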
